A study of Mus musculus with 4 samples.

Results

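Neuropeptide precursors are the secreted proteins from which neurons cut short signalling peptides, and the transcripts of 10 of them were followed through 4 arrays of mouse prefrontal cortex. The genes were Penk, Pdyn, Tac1, Tac2, Crh, Cartpt, Nts, Adcyap1, Trh and Gal, chosen with earlier results of these data known. Every non-control probe that the array files assign to them by gene name was used. These genes had 15 of the 56605 probes. Of the 15, 14 were well above background on all 4 arrays, as was at least 1 probe for each of the 10 genes. In all, 19175 of the 24786 named genes had such a probe.

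The animals were B6J mice aged 3 months. One group was wild-type and ate starch, another was wild-type and ate sucrose, and the remaining groups were heterozygous for Glo1, with starch in one and sucrose in the other. Glo1 encodes glyoxalase 1, an enzyme that clears methylglyoxal. Feeding began at weaning on postnatal day 21 and lasted about 70 days. RNA from 3 prefrontal cortex samples of a group was pooled and put on 1 array, so there were no replicates and a difference between arrays carries no error of its own. The sex of the mice and how the Glo1 allele was made are not given in the sources used here.

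A precursor is cut after pairs of basic residues by prohormone convertases, trimmed by carboxypeptidase E and often amidated, and the peptides act on G protein-coupled receptors at a distance from the synapse. In the forebrain, Penk, Tac1 and Pdyn are best known as products of the projection neurons of the striatum, although scattered cortical neurons carry them too. Crh and Tac2 are found in cortical interneurons, and Adcyap1 in cortical projection neurons. Expression of Trh, Cartpt, Gal and Nts is best known from hypothalamus, amygdala and other regions outside the cortex, and Cartpt and Nts also from the striatum.

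Levels below are signals as multiples of the 75th percentile of the same array, given in the order wild-type starch, wild-type sucrose, heterozygous starch, heterozygous sucrose. Changes are differences in log2 of these levels, and the interaction is the diet change in heterozygotes minus the diet change in wild-types. The 75th percentiles were 1780, 1906, 1882 and 1929 intensity units, between 77.6% and 80.2% of spots were well above background, and no spot was saturated. Glo1 itself (probe A_51_P480982) was at 4.04, 5.53, 2.74 and 3.04, so the heterozygous level was 67.7% of wild-type on starch and 55.0% on sucrose. Markers of cortical excitatory neurons were measured for 17 of 17 listed genes, among them Slc17a7, the vesicular glutamate transporter, at 3.49, 4.44, 3.99 and 4.68. Markers of other regions were present as well and moved between arrays. The summed level of 11 choroid plexus markers was 1.49, 3.00, 1.56 and 72.4, and lists for striatum and olfactory bulb are given beside the precursors they move with. In bulk tissue, fewer cells of a type and less RNA per cell cannot be told apart. All 4 arrays came from 1 slide, and a group's place on it cannot be told apart from the group itself.

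**Figure D1:**
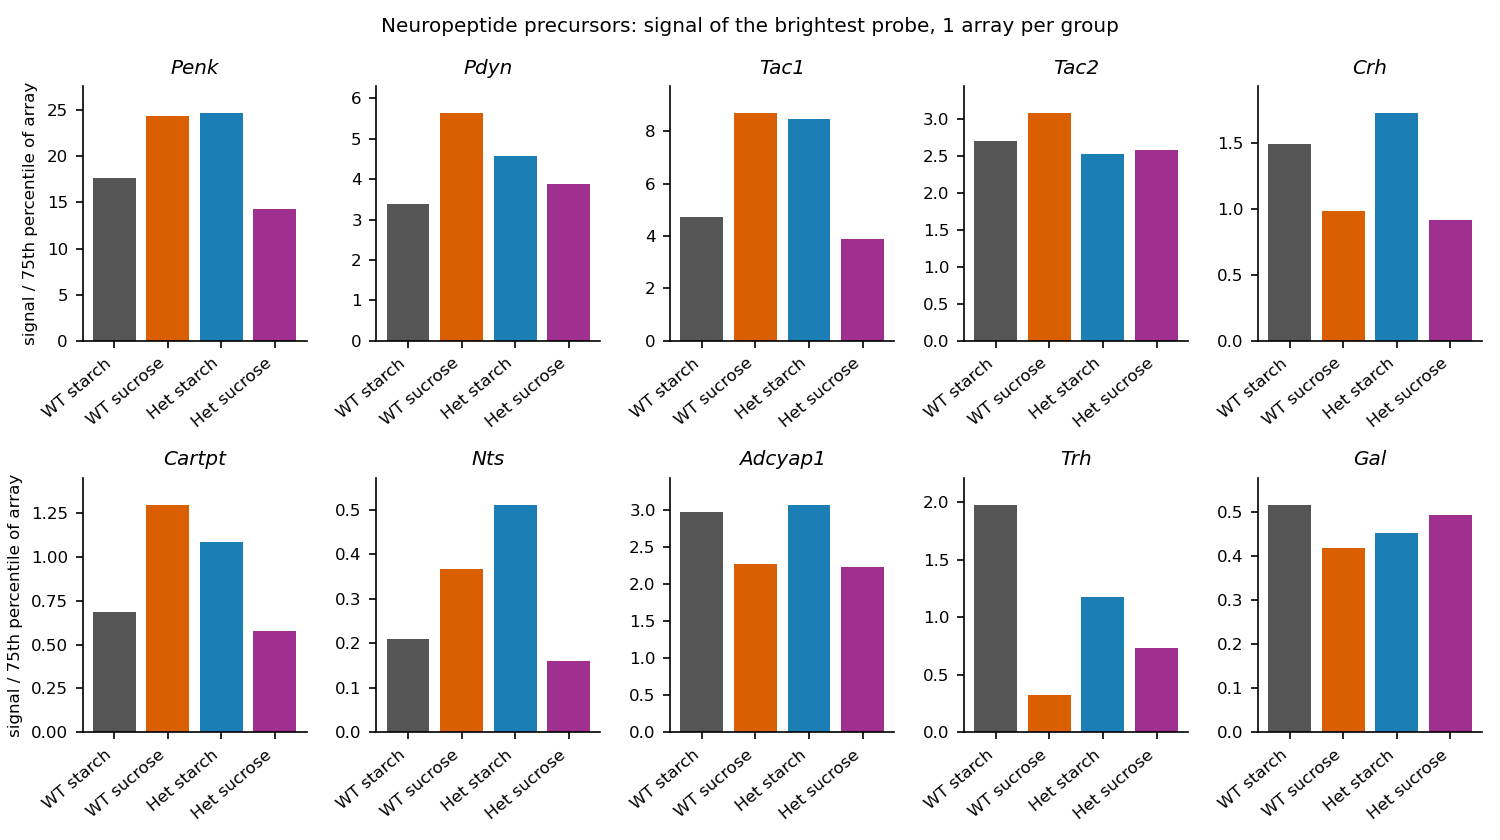
Signal of the brightest probe of each precursor gene (bars, multiples of the array's 75th percentile, axis from 0, each panel on its own scale) on the 4 arrays, 1 pooled sample per bar and no error. Penk, Tac1, Cartpt and Nts are highest on the 2 middle bars and lowest on heterozygous sucrose, while Trh is highest on wild-type starch at 1.98 and lowest on wild-type sucrose at 0.329.

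Penk, Pdyn, Tac1, Cartpt and Nts shared a crossed pattern: all 5 were higher on sucrose than on starch in wild-type mice, and lower on sucrose than on starch in Glo1 heterozygotes. They were also higher in heterozygotes than in wild-types on starch, and lower on sucrose. The same 4 signs were found in 11.7% of the 19175 genes, against 5 of these 10, which were chosen with earlier results of these data known. Of the 5, all but Pdyn had an interaction of -1 or lower, which 0.741% of all genes had.

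Penk encodes proenkephalin, the precursor of the enkephalins, which act on delta and mu opioid receptors. Its brightest probe, A_51_P102987 on chromosome 4 (mm9, 4060735 to 4060794, minus strand), read 17.6, 24.3, 24.7 and 14.3. The arrays of wild-type sucrose and heterozygous starch were high and nearly level with each other, and heterozygous sucrose was lowest. The diet change was 0.46 in wild-types and -0.79 in heterozygotes, and the interaction was -1.25. A dimmer probe for another transcript, A_55_P2925001, read 0.368, 0.430, 0.459 and 0.253, the same order with an interaction of -1.09.

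Pdyn encodes prodynorphin, whose dynorphins act on the kappa opioid receptor. Its probe A_52_P586928 (chromosome 2, mm9, 129512323 to 129512382) read 3.39, 5.63, 4.56 and 3.88. Here wild-type starch, not heterozygous sucrose, was the lowest array. The diet change was 0.73 in wild-types, and the heterozygous sucrose array lay 0.54 below the wild-type sucrose array on the log2 scale. The interaction of -0.96 was the only one of the 5 that did not reach 1 in size.

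Tac1 encodes the precursor of substance P and neurokinin A, which act on the receptors NK1 and NK2. Its brightest probe, A_55_P1954693 (chromosome 6, mm9, 7512893 to 7512952, plus strand), read 4.71, 8.68, 8.45 and 3.87. The 2 high arrays were wild-type sucrose and heterozygous starch, and the 2 low ones were wild-type starch and heterozygous sucrose. The diet change was 0.88 in wild-types and -1.13 in heterozygotes, the genotype change was 0.84 on starch and -1.17 on sucrose, and the interaction was -2.01. As a mean over the Tac1 probes these were 0.50, -0.81, 0.49 and -0.82, with an interaction of -1.31.

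Cartpt encodes the precursor of CART, a peptide linked to feeding and to the response to stimulants. Its probe A_52_P208649 lay across an intron on chromosome 13 (mm9, 100668967 to 100669956, minus strand) and read 0.685, 1.30, 1.08 and 0.578. The order of the arrays was that of Tac1. The diet change was 0.92 in wild-types and -0.90 in heterozygotes, the genotype change on sucrose was -1.16, and the interaction was -1.82.

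Nts encodes the precursor of neurotensin and neuromedin N, peptides that modulate dopamine signalling. Its probe A_51_P485756 (chromosome 10, mm9, 101944967 to 101945026, minus strand) read 0.210, 0.367, 0.512 and 0.161. The order was that of Penk, with heterozygous starch highest, and the highest array was 3.18-fold above the lowest. The diet change was 0.80 in wild-types and -1.67 in heterozygotes. The genotype change was 1.28 on starch and -1.19 on sucrose, and the interaction of -2.47 was the most negative of the 10 genes.

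For 3 of these genes the probe lay in the coding sequence of the peptide itself, which is why these probes are shown. The sequences are those of the array files, in the sense of the transcript, and capitals mark in-frame codon pairs for 2 basic residues, the kind of site that convertases cut, although not every pair is used. The Tac1 probe spans an exon junction (chromosome 6, mm9, 7507722 to 7509136) and its single pair stands just before neurokinin A. The first pair of the Cartpt probe stands just before the active CART peptide. The Nts probe covers the end of neurotensin, whose first pair lies inside the peptide and whose second pair follows it.
Tac1, A_51_P216456: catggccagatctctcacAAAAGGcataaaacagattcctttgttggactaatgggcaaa
Cartpt, A_52_P208649: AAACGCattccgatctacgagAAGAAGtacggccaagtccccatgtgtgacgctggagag
Nts, A_51_P485756: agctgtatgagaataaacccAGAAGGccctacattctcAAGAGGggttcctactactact

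The probes of a gene did not always move together. The Tac1 probe over neurokinin A read 0.827, 1.53, 1.41 and 0.678, so that its highest array was 2.25-fold above its lowest, close to the 2.24-fold of the brightest probe, and its interaction was -1.94. Another Tac1 probe, A_52_P196019, assigned to another transcript at 7515469 to 7515528, read 0.111, 0.0925, 0.101 and 0.0856. It was lower on sucrose in both genotypes and its interaction was 0.03, so it did not follow the other 2. The dimmest Tac1 probe, A_52_P630806, passed the background criterion on 1 array only, wild-type sucrose. Both Adcyap1 probes had heterozygous starch highest and wild-type starch next, but they differed in which sucrose array was lowest.

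**Figure D2:**
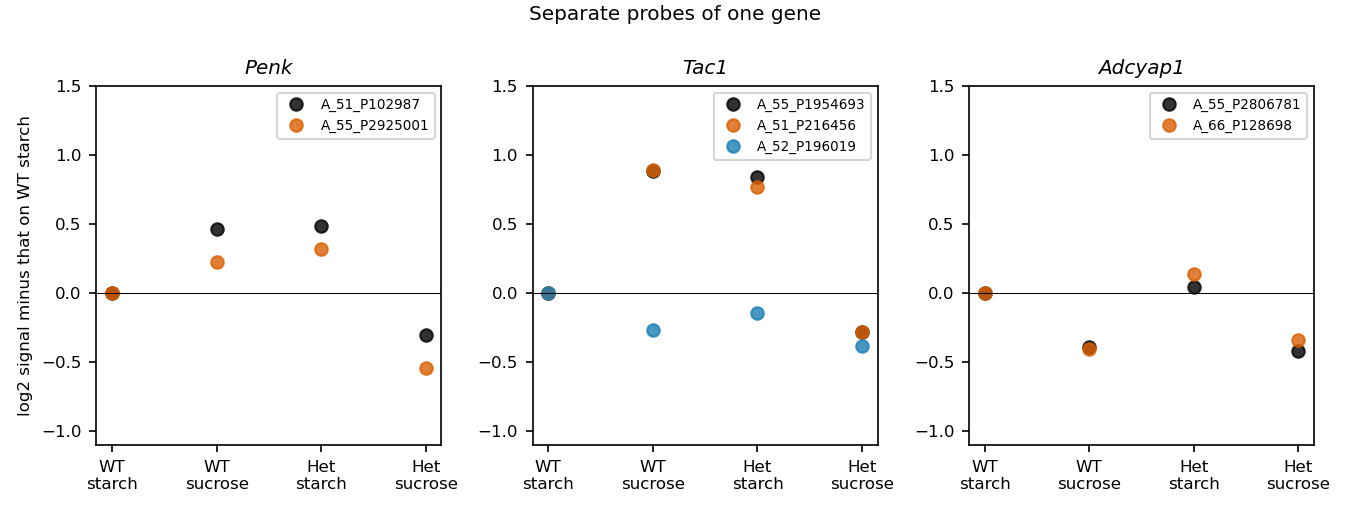
Log2 level relative to wild-type starch (y axis) of each probe well above background on all 4 arrays, for the 3 precursor genes with several such probes, across the 4 arrays (x axis). The 2 Penk probes have the same order of arrays, at 0.46 and 0.23 on wild-type sucrose and at -0.30 and -0.54 on heterozygous sucrose, and the Tac1 probe A_52_P196019 is at -0.27 on wild-type sucrose where the other Tac1 probes are at 0.88 and 0.89.

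Markers of striatal neurons moved with these 5 genes. Of 20 listed striatal gene names 18 were measured, none of which belongs to another list used here. The summed level of the 18 was 51.5, 73.4, 64.0 and 50.9, the order of Tac1 and Cartpt, although 51.5 and 50.9 are close. Between heterozygous sucrose and wild-type starch, 12 of the 18 were lower and 6 higher, with a median of -0.05. That change was -0.28 for Tac1 and -0.24 for Cartpt. In wild-types 18 of 18 were higher on sucrose, 7 of them by 2-fold or more, with a median change of 0.69. Of all genes 1.44% were past 2-fold in either direction there. In heterozygotes 18 of 18 were lower on sucrose, 6 by 2-fold or more (0.459% of all genes), with a median of -0.84. The median over all genes was near 0 in both comparisons, at -0.00 and 0.00. Drd1, the dopamine D1 receptor of the striatal neurons that carry Tac1 and Pdyn, read 0.720, 1.97, 1.71 and 0.706. Adora2a, the adenosine receptor of the striatal neurons that carry Penk, read 0.0861, 0.299, 0.295 and 0.0853. The interaction was -2.73 for Drd1 and -3.59 for Adora2a, beside -2.01 for Tac1 and -1.25 for Penk. Only genes well above background on all 4 arrays counted as measured, so a level of 0 could not occur. The part of the striatal markers in the precursors' values was not tested. Summed markers of cortical excitatory neurons were at 153, 184, 167 and 173, with 17 of 17 higher on sucrose in wild-types (median 0.20, 1 by 2-fold or more) and 10 of 17 in heterozygotes (median 0.03). On starch, 14 of the 17 were higher in heterozygotes than in wild-types. On sucrose, 11 were lower in heterozygotes and 6 higher, with a median of -0.20, and 1 was lower by 2-fold or more (0.344% of all genes).

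**Figure D3:**
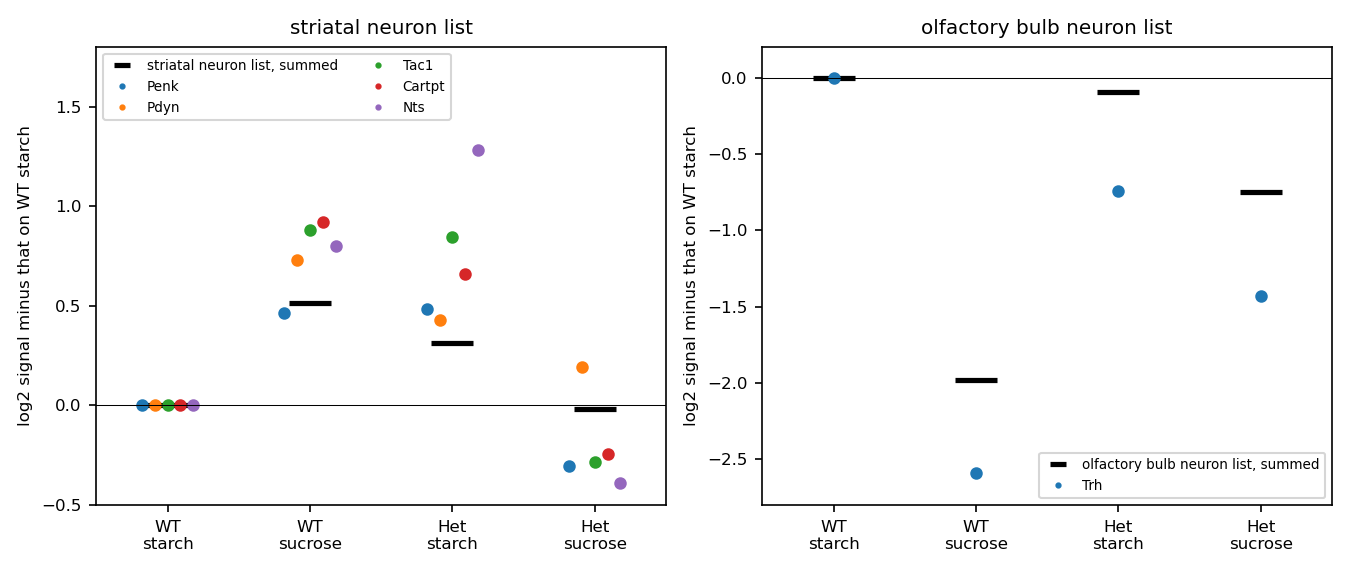
Log2 level relative to wild-type starch (y axis) on each array (x axis) for 5 precursors beside the summed striatal markers (left) and for Trh beside the summed olfactory bulb markers (right); dots are genes and black bars are list sums. The summed striatal markers and 4 of the 5 genes are highest on wild-type sucrose or heterozygous starch and lowest on heterozygous sucrose, and Trh and its list are both lowest on wild-type sucrose.

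The genes with the most similar pattern over the 4 arrays were found by the Euclidean distance between mean-centred log2 levels, over all 19175 genes. Among the 10 precursors the closest pair was Tac1 and Cartpt at a distance of 0.18, followed by Penk and Cartpt at 0.35 and by Crh and Adcyap1 at 0.35. For Tac1 the nearest genes included Gm26885 at 0.19 and Rgs9 at 0.22. Rgs9, a regulator of G protein signalling, belongs to the striatal list and read 2.38, 5.45, 4.80 and 2.20. For Cartpt they included Zg16 at 0.14 and Gm26885 at 0.14. For Nts they were Npsr1, the neuropeptide S receptor, at 0.31, then Rgs9 at 0.51 and Gm31251 at 0.55. Zg16, Gm26885 and Gm31251 were dim, at percentiles 2.7, 7.8 and 12.4 of mean signal among probes well above background. Each distance is over 4 points, so these are descriptions of the 4 arrays.

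The promoters of the same 3 genes are printed because the cyclic AMP response element and related motifs are well known in neuropeptide genes and each of the 3 windows holds one. The windows are the 250 bases before the annotated start in RefSeq (GRCm38.p6), read in the direction of the gene. Capitals mark TGACGTCA, the full cyclic AMP response element, its core TGACG, the AP-1 motif TGANTCA and the E-box CACGTG, each searched on both strands. TGACG is part of TGACGTCA, so a full element is also counted as a core.
Tac1, chr6:7554811-7555060, plus strand: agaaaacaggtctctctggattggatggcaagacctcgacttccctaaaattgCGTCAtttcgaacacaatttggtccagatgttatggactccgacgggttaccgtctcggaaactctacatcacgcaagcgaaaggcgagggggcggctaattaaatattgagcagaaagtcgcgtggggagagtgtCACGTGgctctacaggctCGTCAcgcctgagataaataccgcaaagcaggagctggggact
Cartpt, chr13:99900684-99900933, minus strand: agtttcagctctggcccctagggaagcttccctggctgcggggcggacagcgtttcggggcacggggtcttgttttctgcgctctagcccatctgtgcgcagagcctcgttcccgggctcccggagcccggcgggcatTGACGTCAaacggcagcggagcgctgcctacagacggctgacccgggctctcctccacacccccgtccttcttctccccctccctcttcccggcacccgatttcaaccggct
Nts, chr10:102490419-102490668, minus strand: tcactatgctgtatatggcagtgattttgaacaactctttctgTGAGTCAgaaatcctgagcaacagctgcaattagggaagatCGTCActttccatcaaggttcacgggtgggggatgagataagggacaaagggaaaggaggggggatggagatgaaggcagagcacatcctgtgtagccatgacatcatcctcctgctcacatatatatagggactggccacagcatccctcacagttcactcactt

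Of the 10 genes, 8 had a promoter in the RefSeq table. The full element TGACGTCA stood only in the Cartpt window, 112 bases before the start, and in 1.55% of all 32851 windows. The core TGACG stood in the windows of 5 of the 8 genes, Adcyap1, Cartpt, Nts, Tac1 and Trh, and in 17.8% of all windows. The AP-1 motif stood only in the Nts window, 207 bases before the start, and in 6.75% of all windows. The E-box stood only in the Tac1 window, 61 bases before the start, and in 6.02% of all windows. The 2 windows of Pdyn, which shared the crossed pattern, held none of these motifs, while Adcyap1 and Trh, which did not share it, held the core. These matches describe letters in the windows, and the arrays measured no binding.

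Trh encodes the precursor of thyrotropin-releasing hormone, the tripeptide that drives the pituitary to release thyrotropin and that also acts in the brain. Its probe A_55_P2071349 (chromosome 6, mm9, 92192061 to 92192120, minus strand) read 1.98, 0.329, 1.18 and 0.732. The wild-type starch array was highest and the wild-type sucrose array lowest. The span of 6.02-fold was the widest of the 10 genes. The diet change was -2.59 in wild-types and -0.69 in heterozygotes. The genotype change was -0.75 on starch and 1.16 on sucrose, and the interaction of 1.90 was opposite in sign to those of the crossed genes.

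Markers of olfactory bulb neurons moved with Trh. All 10 listed genes were measured, of which 2 are also in another list used here, and their summed level was 12.3, 3.10, 11.49 and 7.30, the order of Trh. In wild-types 10 of 10 were lower on sucrose, 9 by 2-fold or more (0.954% of all genes), with a median of -2.13. In heterozygotes 10 of 10 were lower on sucrose, 2 by 2-fold or more (0.459% of all genes), with a median of -0.70. On sucrose 10 of 10 were higher in heterozygotes than in wild-types, 8 by 2-fold or more (1.41% of all genes). Eomes, a transcription factor of mitral and tufted cells, read 0.403, 0.0449, 0.458 and 0.277. Th, the tyrosine hydroxylase of dopaminergic neurons, read 4.29, 0.971, 3.77 and 2.15, and was among the 3 genes nearest to Trh, at a distance of 0.43 beside Klhl30 at 0.42 and Shisa8 at 0.43. On starch the 2 differed, since Trh was 0.75 lower in heterozygotes on the log2 scale while the median of the list was -0.10. As for the striatal list, only genes well above background on all 4 arrays counted as measured. The part of the olfactory bulb markers in the Trh values was not tested.

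Crh and Adcyap1 were lower on sucrose in both genotypes. Crh encodes corticotropin-releasing hormone, which starts the stress response through the pituitary and which cortical interneurons also make. Its probe A_55_P2071384 (chromosome 3, mm9, 19593482 to 19593541, minus strand) read 1.495, 0.988, 1.73 and 0.918. The diet change was -0.60 in wild-types and -0.91 in heterozygotes. The genotype change was 0.21 on starch and -0.11 on sucrose, and the interaction was -0.31.

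Adcyap1 encodes PACAP, a peptide that raises cyclic AMP through the PAC1 and VPAC receptors. Its brightest probe, A_55_P2806781 (chromosome 17, mm9, 93604702 to 93604761, plus strand), read 2.98, 2.27, 3.07 and 2.23, and the other probe, A_66_P128698, read 0.839, 0.634, 0.922 and 0.662. Both probes were lower on sucrose in both genotypes. The diet change on the brightest probe was -0.39 in wild-types and -0.46 in heterozygotes. The genotype change was 0.04 on starch. On sucrose it was -0.03 on the brightest probe, 0.06 on the other probe and 0.02 for the mean over probes. The interaction was -0.07.

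Being lower on sucrose in both genotypes was common: it held for 30.5% of all genes, so 3 of 10 precursors (Crh, Adcyap1 and Trh) is near the background. In the additive limma fit of diet and genotype, which has 1 residual degree of freedom and takes the interaction as error, 0 of 42094 probes passed a limma adjusted p of 0.05 for diet and 0 for genotype. At an unadjusted p under 0.05, limma called 3704 probes (8.8%) for diet and 2704 (6.42%) for genotype. After normexp background correction 28 probes passed the adjusted threshold for diet. The diet effect of Crh was -0.75, with an unadjusted p of 0.00542 and a limma adjusted p of 0.532. That of Adcyap1 was -0.43, with a limma adjusted p of 0.532, and that of Trh was -1.64, with a limma adjusted p of 0.555. Under the other settings the limma adjusted p for diet ranged from 0.0831 to 0.814 for Crh, from 0.153 to 0.814 for Adcyap1 and from 0.173 to 0.814 for Trh.

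Genes induced by neuronal activity were also lower on sucrose. Of 12 measured, 11 were lower in wild-types with a median of -0.57, and 12 were lower in heterozygotes with a median of -0.79. By 2-fold or more, 1 was lower in wild-types (0.954% of all genes) and 5 in heterozygotes (0.459% of all genes). Their summed level was 101, 74.7, 111 and 70.6, the order of Crh and Adcyap1. Egr2, an immediate early transcription factor, read 1.72, 0.695, 2.15 and 0.633. The part of neuronal activity in the levels of Crh and Adcyap1 was not tested.

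Tac2 and Gal were the flattest of the 10 genes. Tac2 encodes the precursor of neurokinin B, and its probe A_66_P116054 (chromosome 10, mm9, 127168740 to 127168799) read 2.71, 3.08, 2.53 and 2.58, a span of 1.22-fold. Its diet change was 0.18 in wild-types and 0.03 in heterozygotes. Gal encodes the precursor of galanin, and its probe A_51_P258281 (chromosome 19, mm9, 3411143 to 3411202) read 0.515, 0.418, 0.451 and 0.493, a span of 1.23-fold. Its interaction was 0.43, with the lowest array wild-type sucrose, as for Trh. Tac2 therefore did not share the crossed pattern of Tac1, the other tachykinin gene.

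**Figure D4:**
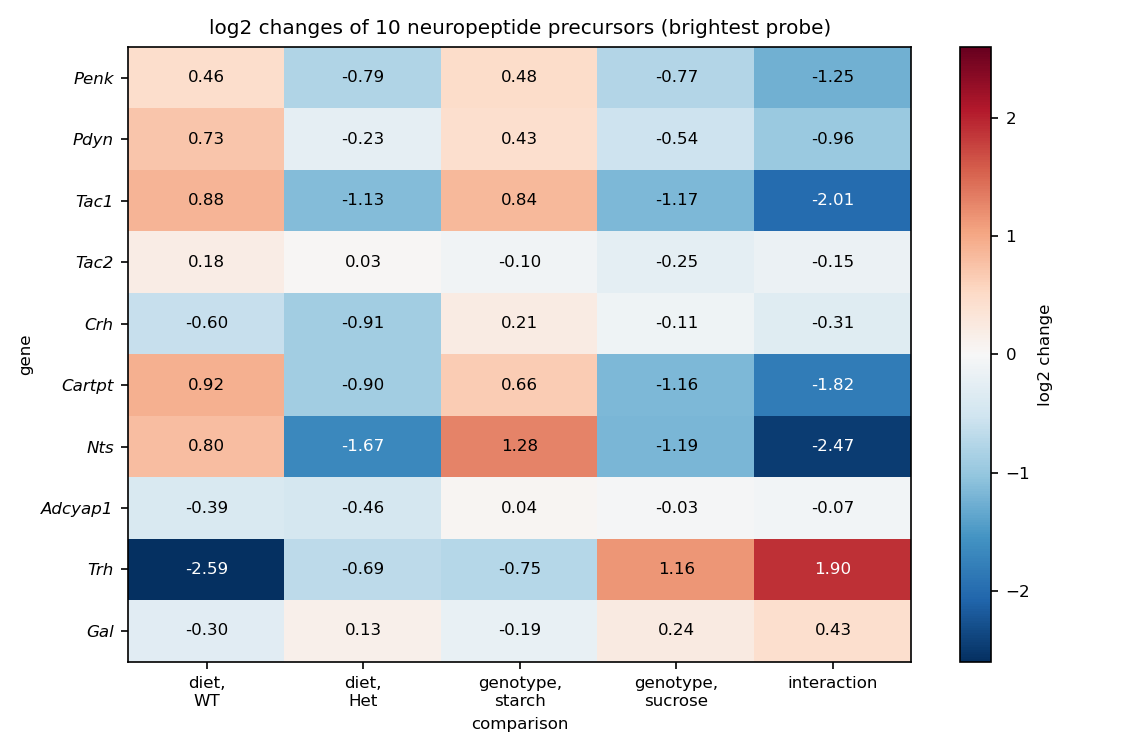
Log2 change (colour and printed value) of the brightest probe of each precursor gene (rows) in the pairwise comparisons and the interaction (columns), 1 array per group. Tac1, Cartpt and Nts change sign between the diet columns and reach -2.01, -1.82 and -2.47 in the interaction, and Trh reaches 1.90.

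Across the 10 genes, sucrose against starch in wild-types put 1 gene past 2-fold, Trh, which was lower. Of all genes 1.44% were past 2-fold in either direction and 0.954% were lower by that much. By sign, 6 of the 10 were higher, near the 49.6% of all genes that were. In heterozygotes Tac1 and Nts were lower by 2-fold or more, 2 of 10 against 0.459% of all genes (1.77% in either direction), and 2 of the 10 were higher on sucrose against 50.3% of all genes. The median of the 10 was 0.32 in wild-types and -0.74 in heterozygotes, while the median of all genes was at 0 to 2 decimals in both. On starch, Nts alone was past 2-fold between genotypes, and higher, against 0.344% of all genes (0.777% in either direction), with 7 of the 10 higher in heterozygotes against 45.4% of all genes. On sucrose, Tac1, Cartpt and Nts were lower and Trh higher in heterozygotes by 2-fold or more, 4 of 10 against 1.76% of all genes in either direction. Of all genes 0.344% were lower and 1.41% higher by that much. By sign, 2 of the 10 were higher in heterozygotes against 44.7% of all genes, and the median was -0.39 for the 10 and -0.02 for all genes. As a mean over its probes, Tac1 was short of 2-fold both for diet in heterozygotes and for genotype on sucrose. Heterozygous sucrose differed from wild-type starch by 2-fold or more for Trh alone, which was lower, against 0.61% of all genes (1.98% in either direction), and 1 of the 10, Pdyn, was higher there against 46.8% of all genes. The median was -0.29 for the 10 and -0.02 for all genes. An interaction of log2 size 1 or more was found for Penk, Tac1, Cartpt, Nts and Trh, 5 of 10 against 2.77% of all genes. It was positive for Trh, and 2.03% of all genes had a positive one of that size. For 4 genes, Tac1, Cartpt, Nts and Trh, the highest array was 2-fold or more above the lowest, against 4.1% of all genes. These comparisons share arrays, so their counts are not independent of each other. The 10 genes were chosen with earlier results of these data known, so an excess over all genes is not a test.

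**Figure D5:**
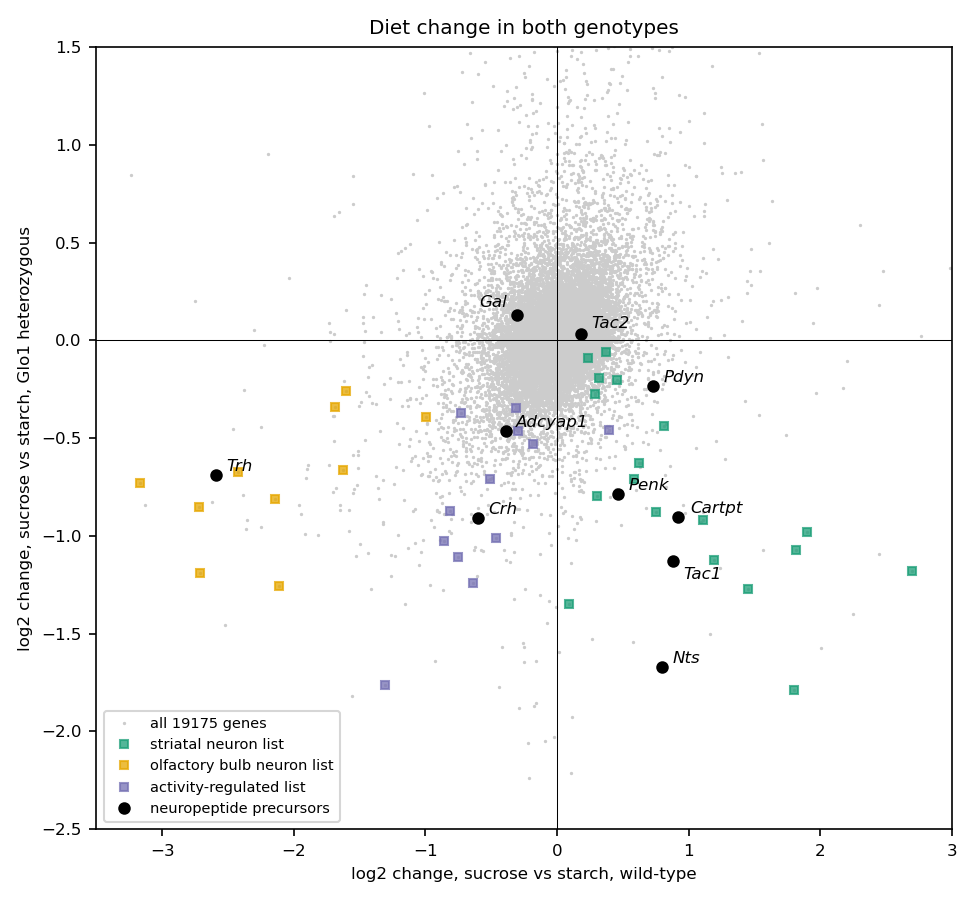
Diet change in wild-types (x axis, log2) against diet change in heterozygotes (y axis, log2), with the 10 precursors labelled on top of all 19175 genes in grey; 127 genes beyond the axes are not drawn. Penk, Pdyn, Tac1, Cartpt and Nts lie at the lower right, higher on sucrose in wild-types and lower in heterozygotes, and Trh lies at -2.59 on the x axis.

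The enzymes and granule proteins that turn precursors into peptides moved little. All 14 listed genes were measured, none was past 2-fold in any pairwise comparison, and their median change stayed between -0.12 and 0.06 in the diet and genotype comparisons. The member that moved most with diet was Pcsk1, prohormone convertase 1, at 0.684, 0.410, 0.672 and 0.400, which was lower on sucrose by 0.74 in wild-types and 0.75 in heterozygotes on the log2 scale, as Crh and Adcyap1 were. Pcsk2, the other neuronal convertase, was at 21.3, 26.0, 18.4 and 22.1. Scg2, a granule protein that is itself cut into peptides, was at 25.9, 18.4, 26.7 and 19.2.

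Of the 21 listed receptors and binding proteins for these peptides 19 were measured, and their median change stayed between -0.01 and 0.09 in the diet and genotype comparisons. In wild-types 1 was higher on sucrose by 2-fold or more and 1 was lower (1.44% of all genes in either direction). The higher one was Oprk1, the kappa receptor of the dynorphins, which read 0.184, 0.645, 0.289 and 0.342 and was highest on wild-type sucrose, as was Pdyn. The lower one was Vipr2, a receptor for PACAP and VIP, at 0.792, 0.155, 0.817 and 0.432, lowest on wild-type sucrose as the olfactory bulb markers were, whose part was not tested. In heterozygotes Tacr3, the neurokinin B receptor, was higher on sucrose by 1.35 and Crhr2, a receptor for Crh family peptides, by 1.15. Tacr3 was dim, at 0.0136, 0.0191, 0.0151 and 0.0385, and Crhr2 read 0.162, 0.212, 0.174 and 0.386. Those 2 were highest on the heterozygous sucrose array, where the choroid plexus markers were also highest, and the part of those markers was not tested. Oprm1, the mu opioid receptor, was at 32.7, 33.5, 34.8 and 34.0, and Ntsr1, a neurotensin receptor, at 0.441, 0.874, 0.501 and 0.646. Trhr, the receptor of thyrotropin-releasing hormone, was at 0.166, 0.269, 0.220 and 0.370.

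Of 13 other neuropeptide genes of the cortex, all measured, 1 was past 2-fold in any pairwise comparison: Nmb, neuromedin B, which is also on the olfactory bulb list. It was at 2.62, 0.811, 2.53 and 1.998, lowest on wild-type sucrose as Trh was. Sst, somatostatin, was at 39.8, 46.0, 39.3 and 39.3, Npy at 4.40, 5.14, 4.23 and 4.45, and Cck at 114.3, 114.4, 108.8 and 107.9. The median change of the 13 lay between -0.08 and 0.00 in the diet and genotype comparisons. Among 10 genes best known from the hypothalamus, 3 were past 2-fold in some comparison: Oxt (oxytocin) at 0.319, 0.0696, 0.0804 and 0.155, Avp (vasopressin) at 0.0370, 0.0165, 0.0214 and 0.0275, and Gnrh1. Oxt was lower by 2-fold or more on wild-type sucrose and on heterozygous starch than on wild-type starch, which none of the 10 precursors was.

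Lists for other cell types and regions were measured in the same way. Over the diet change in wild-types, the diet change in heterozygotes, and the genotype change on starch and on sucrose, the median of 13 cortical interneuron genes was -0.11, -0.01, -0.02 and -0.01. That of 8 septum and amygdala genes was -0.07, -0.16, 0.17 and 0.20, and that of 5 measured pituitary genes 0.17, 0.05, -0.04 and -0.24. Among the 5, Prl, prolactin, was past 2-fold in all 4 comparisons. It read 0.0101, 0.0305, 0.1059 and 0.0105, with the 4 signs of the crossed precursors and an interaction of -4.92. Its mean log2 level was -5.37, so the changes of Prl rest on dim signals. For 11 choroid plexus genes the median was 0.34, 3.68, 0.05 and 3.59, so the heterozygous sucrose array, on which Penk, Tac1, Crh, Cartpt, Nts and Adcyap1 were lowest by their brightest probe (Adcyap1 not by its other probe), was also the one high in choroid plexus markers. The part of those markers in the precursors' values was not tested.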

How the data were processed

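Prefrontal cortex RNA, pooled from 3 samples per group, was hybridised to one-colour Agilent arrays, 1 per group, from 200 ng labelled with Cy3, per the labels' protocols. The deposited intensity values were the processed signals of Agilent Feature Extraction 11.5.1.1 (version per the submitters' processing notes), background-subtracted and detrended within each array per the file headers. The authors also deposited 1 ratio per spot, and all 62976 on each array equalled the processed signal over that array's 75th percentile within 0.1%. Coordinates of probes are mm9, per the files.

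Each processed signal was divided by the 75th percentile of that array's 59305 non-control spots and put on the log2 scale. Control and outlier spots were dropped, and repeated spots were averaged to 1 value per probe. Genes were represented by their brightest probe among the 42094 probes well above background on all 4 arrays; 18298 symbols were current in RefSeq and 877 older. Probes printed several times gave an SD of 0.07 (log2) for the difference of single spots in the brightest signal quartile (291 probes), which holds 5 precursors. In the next quartile, which holds the other 5, it was 0.12 from 5 probes only, and below that 0.13 from 3. This covers spot error only. The number of arrays limits the precision. Differences of single arrays carry no p-value. limma 3.58.1 (R 4.3.3) fitted diet and genotype additively over all probes, with Benjamini-Hochberg adjustment. The fit was run on simulated data with additive diet changes only, which cannot show how it treats a crossed pattern. The rule for named genes took the 10 precursors, Glo1, for precursors spanning 2-fold or more the 3 genes of nearest pattern, and from each of 12 lists at most 5 genes past 2-fold and the brightest gene. A result that the rule names is not reported here. Slc17a7, Pcsk1, Pcsk2, Scg2, Ntsr1 and Npy fall outside it and were chosen after their values were seen.

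The 10 genes, the lists and the tests were chosen with earlier results of these data known. Alternatives were normexp background correction, median, quantile and cyclic loess scaling, outliers kept, the deposited ratios, means over probes, no filter, a stricter filter and a 1.5-fold threshold.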

Additional observations from a re-analysis of the deposited data

Results flagged for a closer look

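For 4 of the 10 genes the diet change had opposite signs in the 2 genotypes, higher on sucrose in wild-types and lower in heterozygotes, with an interaction of log2 size 1 or more. The interaction was -1.25 for Penk, -2.01 for Tac1, -1.82 for Cartpt and -2.47 for Nts. Each rests on 4 single arrays, and the difference between genotypes was not tested. The same signs with an interaction of -1 or lower were found in 95 of 19175 genes (0.495%), and opposite signs in either direction with an interaction of size 1 or more in 341 (1.78%).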

How the results depend on the processing

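No paired analysis was possible because each group had 1 array. Of the 50 pairwise changes of the 10 genes, 49 kept their sign under all 7 alternatives that give them a value, the exception being Adcyap1 between genotypes on sucrose, which was 0.02 with means over probes and negative with the others, down to -0.07. All 10 interactions kept their sign. With a 1.5-fold threshold the number of precursors past it was 6 for diet in wild-types (5.72% of all genes), 6 for diet in heterozygotes (5.53%), 4 for genotype on starch (3.66%), 5 for genotype on sucrose (4.49%) and 2 for heterozygous sucrose against wild-type starch (7.14%). With means over probes it was 1 for diet in heterozygotes, since Tac1 was then at -0.81, and 3 for genotype on sucrose, where Tac1 was at -0.82. The Tac1 interaction was then -1.31. With normexp the additive limma fit called 28 probes for diet, and with an intensity trend 1, against 0 in the fit as reported.

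Of 72 list medians, 19 changed sign under some alternative, each 0.17 or less in size as reported, and 15 moved by more than the spot SD of 0.131, as follows. With normexp, the striatal median was -0.67 for diet in heterozygotes, and the olfactory bulb median -1.61 for diet in wild-types and 1.21 for genotype on sucrose. With means over probes the striatal median was 0.55 for diet in wild-types. For choroid plexus, normexp gave 0.19 for diet in wild-types, 3.29 for diet in heterozygotes, 3.13 for genotype on sucrose, 3.42 for heterozygous sucrose against wild-type starch, and 3.12 for the interaction, and means over probes gave 3.53, 3.34, 3.83 and 2.29 for the last 4. For pituitary, normexp gave -0.0097 for diet in wild-types, -0.0795 for genotype on sucrose, -0.13 for heterozygous sucrose against wild-type starch, and -0.0103 for the interaction. For heterozygous sucrose against wild-type starch, the receptor median was 0.23 with quantile scaling and that of other cortical neuropeptides 0.0698 with cyclic loess. Apart from the means over probes and the 1.5-fold threshold, the cause was not tested. Over the 6 comparisons the probes past 2-fold numbered 395 to 1155 as reported, 100 to 356 with normexp, 2984 to 5374 with no filter and 41 to 126 above the median signal. With 1 array per group, no replicate could be left out.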
